A study of Homo sapiens with 9 samples.

Results

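RNA polymerase II (RNAPII) peaks at one-way coding promoters were taken from 5 lists of RNAPII chromatin immunoprecipitation and sequencing (ChIP-seq) peaks. A peak was counted when its summit, the position of its highest tag pile-up, lay within 500 bp of the transcription start site (TSS) of the longest protein-coding transcript of a gene, and when no protein-coding TSS lay on the opposite strand within 1 kb of that TSS. In the GENCODE annotation on GRCh37, 17019 of 19833 protein-coding genes had such a one-way promoter. The lists held 25182 of these peaks among 142069 in all. They were 1709 of the 5287 peaks with the control shRNA, 4669 of 23698 with shRNA5, 5718 of 32124 with shRNA7, 7203 of 47060 without doxycycline and 5883 of 33900 with doxycycline.

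The study asked how RECQL5, a DNA helicase that binds RNAPII, affects transcription. HEK293 cells, a human embryonic kidney line, were infected with lentiviral supernatant carrying a control short hairpin RNA (shRNA) or 1 of 2 hairpins against RECQL5, called shRNA5 and shRNA7. HEK293T-rex cells, which in both groups carried a plasmid with full-length RECQL5 under a doxycycline-inducible promoter beside their own RECQL5 gene, were grown with doxycycline at 0.0 or 1.0 ng/ml. Peaks were called against libraries made with non-specific IgG, of which the labels name 1 for each hairpin and 1 from untreated cells for both doxycycline lists. Whether the plasmid-bearing cells were 1 clone was not given in the sources used here, nor how much of RECQL5 was left in the library used for each hairpin. Tags inside peaks summed to between 842310 (control shRNA) and 6698771 (shRNA7) over a list, and tags were not scaled to read depth, which the lists do not give. The study's methods state that read numbers were similar among the samples compared within the knockdown arm and within the doxycycline pair. The hairpin lists used here are shorter than the peak numbers in the study's methods, the control list most so in proportion, so all numbers of peaks and overlaps below refer to the lists as analysed here. In a population of cells, RNAPII on fewer cells and less RNAPII per cell cannot be told apart. Each group had 1 library, so no difference between groups was tested against the spread between cultures, and every interval below is a 95% interval for counting error only.

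RNAPII that has begun transcription often halts shortly past the TSS, so that its ChIP-seq signal is usually highest just inside the gene. Promoters with a TATA box tend to start transcription at a fixed distance from it, whereas most promoters of widely expressed genes are rich in CpG and start at several nearby positions. Many promoters with a single coding gene also fire in the other direction, giving short-lived upstream RNAs or long non-coding RNAs (lncRNAs). At promoters shared by a divergent pair of coding genes, both directions lead into a coding gene. Here all promoters with a protein-coding TSS on the opposite strand within 1 kb are called bidirectional. The class thus also holds pairs whose starts face each other, such as KRT8 and KRT18.

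The 6 genes with a peak in all 5 lists and the highest tags over them (geometric mean) are shown by their core promoters, from −120 to +30 relative to the TSS at +1, because the strongest peaks include promoters with and without a TATA box. They are SRSF3, a splicing factor (chr6:36562019-36562168, plus strand), SFPQ, a splicing and paraspeckle protein (chr1:35659018-35659167, minus strand), the ribosomal proteins RPS19 (chr19:42364205-42364354, plus strand) and RPS4X (chrX:71497069-71497218, minus strand), EEF2, the elongation factor that moves the ribosome (chr19:3985432-3985581, minus strand), and SNRPB, a core protein of the spliceosomal snRNPs (chr20:2451470-2451619, minus strand). All are read from GRCh37, 5′ to 3′ along the gene, with a searched motif inside its search window in capitals.
SRSF3: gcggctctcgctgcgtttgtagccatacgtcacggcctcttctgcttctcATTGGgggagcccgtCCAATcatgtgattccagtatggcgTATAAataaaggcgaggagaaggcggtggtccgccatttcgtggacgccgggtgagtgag
SFPQ: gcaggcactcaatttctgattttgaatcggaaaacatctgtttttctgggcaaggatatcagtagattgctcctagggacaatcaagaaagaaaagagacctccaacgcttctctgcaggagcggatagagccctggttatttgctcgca
RPS19: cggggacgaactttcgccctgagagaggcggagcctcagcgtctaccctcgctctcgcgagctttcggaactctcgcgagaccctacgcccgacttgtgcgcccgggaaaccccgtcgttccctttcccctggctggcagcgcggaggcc
EEF2: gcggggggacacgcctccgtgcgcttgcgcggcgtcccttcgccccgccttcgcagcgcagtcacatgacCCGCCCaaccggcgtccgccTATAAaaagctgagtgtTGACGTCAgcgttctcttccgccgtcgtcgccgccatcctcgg
RPS4X: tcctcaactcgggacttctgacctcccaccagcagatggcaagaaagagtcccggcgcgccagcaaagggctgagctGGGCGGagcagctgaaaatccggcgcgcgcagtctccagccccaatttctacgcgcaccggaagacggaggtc
SNRPB: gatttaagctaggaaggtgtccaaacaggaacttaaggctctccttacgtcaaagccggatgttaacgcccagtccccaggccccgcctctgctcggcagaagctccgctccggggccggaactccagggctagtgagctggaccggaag

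The motifs were searched as plain letters. TATAA was searched on the gene's own strand from −40 to −20, and occurs there in 5.48% of all one-way promoters. The others were searched on both strands from −250 to −1. They were the CCAAT box (CCAAT or ATTGG, in 32.9% of one-way promoters), the GC box (GGGCGG or CCGCCC, 52.1%), the cAMP response element TGACGTCA, which is its own reverse complement (2.07%), the ETS site (CCGGAAG or CTTCCGG, 8.78%) and the NRF1 core (GCGCATGC or GCATGCGC, 3.16%). None of these letter strings contains another, though their matches may overlap. Among the 6 genes shown, SRSF3 and EEF2 have TATAA, in both with its first base at −30.

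Another 4 genes, chosen after their values were seen, have their summit upstream of the TSS in all 5 lists and the highest tags among such genes. They are ZBTB37 (window chr1:173837258-173837407, plus strand), ZNFX1 (chr20:47895074-47895223, minus strand), SETD5 (chr3:9439039-9439188, plus strand) and RPL31 (chr2:101618941-101619090, plus strand). The stretch from −260 to −111 is shown for each, since many of the upstream summits lie within it or further upstream.
ZBTB37: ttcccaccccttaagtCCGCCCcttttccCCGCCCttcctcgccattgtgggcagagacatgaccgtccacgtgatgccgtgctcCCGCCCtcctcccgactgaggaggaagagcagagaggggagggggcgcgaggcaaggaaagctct
ZNFX1: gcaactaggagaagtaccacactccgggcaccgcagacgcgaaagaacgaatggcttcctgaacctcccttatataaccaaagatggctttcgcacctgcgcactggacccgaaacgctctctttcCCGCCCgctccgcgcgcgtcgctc
SETD5: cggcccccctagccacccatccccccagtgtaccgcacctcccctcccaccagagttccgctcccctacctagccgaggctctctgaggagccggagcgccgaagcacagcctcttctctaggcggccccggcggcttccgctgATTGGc
RPL31: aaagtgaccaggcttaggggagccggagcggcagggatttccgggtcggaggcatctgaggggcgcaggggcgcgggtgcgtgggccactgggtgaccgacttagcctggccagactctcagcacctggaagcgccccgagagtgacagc

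Summits at one-way promoters lay mostly just inside the gene. Their median offset from the TSS, counted along the direction of transcription, was +39 bp with the control shRNA (35 to 44), +23 bp with shRNA5 (16 to 27), +36 bp with shRNA7 (33 to 39), +37 bp without doxycycline (35 to 39) and +41 bp with it (39 to 43). When the rule was applied to the one-way TSSs of all protein-coding transcripts, the medians were 16, 3, 12, 12 and 16 bp in the same order. The shRNA5 interval then began at the TSS (0 to 5). This also took in more peaks, 2132, 5971, 7303, 9740 and 7792 in that order, so the same peaks were not simply measured anew. The fullest 25-bp bin of offsets ran from 25 to 50 bp in 4 lists and from 50 to 75 bp with doxycycline. Of all these peaks, 37.7% with the control shRNA had the summit in the first 100 bp of the gene, against 29.8% with shRNA5, 36% with shRNA7, 41.4% without doxycycline and 40.3% with it. By annotation, the largest class of downstream summits in every list fell in the 5′ untranslated part of the first exon, with 36.4%, 30.2%, 36.8%, 42.3% and 40.7% of the peaks in the order above. The first intron held 10.7% to 15.6% of the peaks, and the coding part of the first exon 9.87% to 12.3%.

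A sizeable minority of summits lay upstream of the TSS. In the control and shRNA5 lists the number of summits per bin dipped shortly before the TSS. From −75 to −50 bp the control list had 17 summits, against 47 from −125 to −100 bp and 30 from −50 to −25 bp. The same bins held 84, 156 and 108 summits with shRNA5 and 142, 157 and 152 with shRNA7, where the dip was slight. Without doxycycline these bins held 191, 150 and 260 summits and with it 147, 108 and 204, so that the count was higher nearer the TSS. These bins were picked after the counts were seen, and differences between single bins were not tested. Summits downstream of the TSS made up 63.5% of the peaks with the control shRNA (61.2 to 65.7), 54.3% with shRNA5 (52.8 to 55.7), 60.7% with shRNA7 (59.4 to 62.0), 64.6% without doxycycline (63.5 to 65.7) and 64.7% with it (63.5 to 65.9). The shRNA5 interval lay below the other 4. At bidirectional promoters, where the gene nearest the summit sets the direction, the 5 shares ran from 68.6% with shRNA5 to 70.9% with shRNA7. The 500 bp limit cut through a thin part of the distribution, with 92 control peaks in the outermost 100 bp on either side and 60 in the next 100 bp beyond the limit, and with 357 and 244 in the list without doxycycline.

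**Figure D1:**
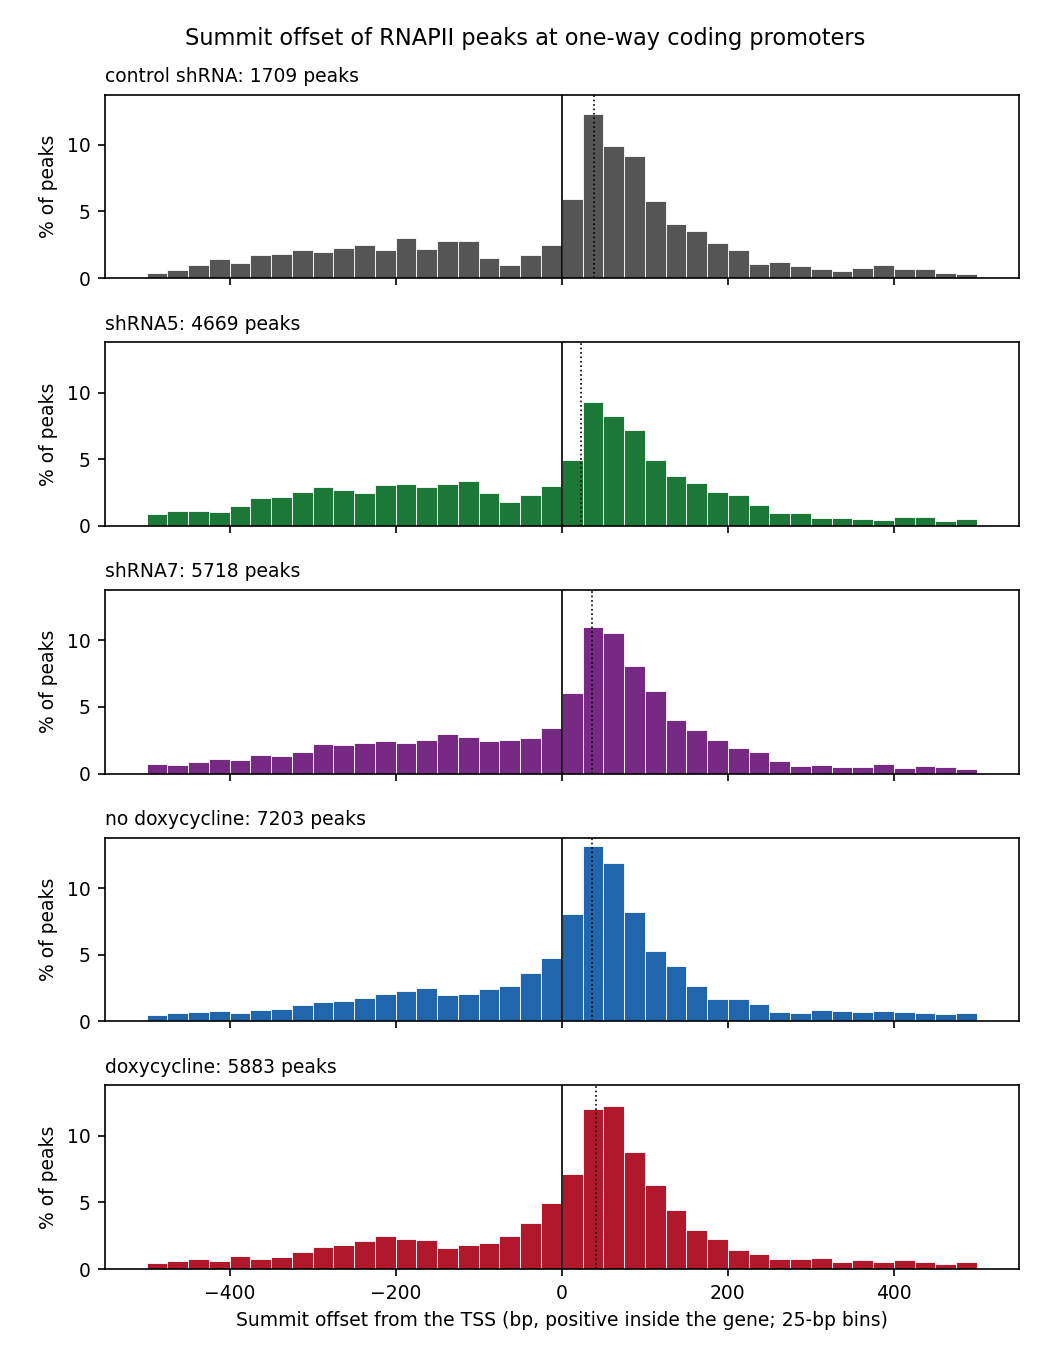
Percentage of one-way promoter peaks (y axis) by summit offset from the TSS in 25-bp bins (x axis, bp, positive inside the gene), with 1 panel for each list; the solid line marks the TSS and the dotted line the median. All 5 lists peak inside the gene within 75 bp of the TSS, and each has a broad spread of summits upstream, with 17 control summits in the bin from −75 to −50 bp against 47 from −125 to −100 bp.

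Single genes show the same range of positions. At SRSF3 the summit was at +37, +39, +35, +34 and +34 bp with the control hairpin, shRNA5, shRNA7, without doxycycline and with it, a spread of 5 bp. EEF2 had summits from +59 to +85 bp and SFPQ from +306 to +348 bp. RPS19 had its summit upstream with the control shRNA and shRNA5, at −119 and −21 bp, and downstream in the other lists, at +27, +13 and +28 bp. SNRPB, at +65 to +118 bp elsewhere, had its shRNA7 summit at −196 bp.

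Of the 17019 one-way promoters, 8001 had such a peak in at least 1 list and 1339 (7.87%) in all 5. Another 2252 had one in every list but the control shRNA list, the most frequent pattern after none. At the 1339 genes, the 5 summits of a gene spanned a median of 137 bp (129 to 147). The summit was downstream of the TSS in all 5 lists at 531 genes (39.7%), upstream in all 5 at 198 (14.8%) and on different sides at 610. The 5 summits of a gene spanned a median of 75 bp at the 531 genes and 117.5 bp at the 198, which were chosen for having their summits on 1 side. Over the lists, the median offset ran from +71 to +87 bp at the former and from −234 to −189 bp at the latter.

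Promoter sequence went with the side of the summit. TATAA stood in 55 of the 531 promoters with the summit downstream in all lists (10.4%, 8.04 to 13.2) and in 0 of the 198 with it upstream in all lists, a count that allows a share of up to 1.90% (upper Wilson bound). In each list separately, genes with TATAA more often had the summit inside the gene. The shares with and without the letters were 88.9% of 99 genes against 61.9% of 1610 with the control shRNA, 79.1% of 148 against 53.5% of 4520 with shRNA5, 87.2% of 149 against 60.0% of 5569 with shRNA7, 81.3% of 198 against 64.4% of 6926 without doxycycline and 90.7% of 172 against 64.1% of 5668 with it. The 2 intervals did not overlap in any list. TATAA genes also had more tags in each list, with medians of 132 against 84 tags, 124.5 against 101, 315 against 131, 68 against 38 and 83 against 43 in the same order. Among genes above the median tags of their list, the downstream share was still 80.4% to 91.3% with TATAA over the 5 lists and 54.1% to 67.5% without. Among the other genes it was 71.6% to 91.1% with TATAA and 52.8% to 62.2% without, but there TATAA genes numbered only 30 to 67, and the 2 intervals overlapped in the list without doxycycline (59.9 to 81.0 and 59.6 to 62.9).

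Promoters with a peak were more often rich in CpG than those without, and the share was highest for promoters in 4 lists. Rich in CpG here means a GC content above 50% and a CpG observed-to-expected ratio above 0.6 within 500 bp of the TSS. This held for 30.3% of promoters with a peak in 0 lists, 75.6% in 1, 84.6% in 2, 91.9% in 3, 93% in 4 (91.9 to 93.9) and 87.7% in all 5 (85.8 to 89.3). The ETS site, bound by a family of activators common at housekeeping promoters, was found in 2.99%, 6.61%, 10.6%, 14.6%, 18.7% and 23.5% of the same groups. TATAA was in 7.94% of promoters with no peak, 1.68% of those in 4 lists and 6.27% of those in all 5. The share of downstream summits was lower for genes with the ETS letters than for the others, at 57.7% against 65.2% with the control shRNA (52.7 to 62.5 and 62.6 to 67.7) and 48.1% against 55.7% with shRNA5 (44.8 to 51.4 and 54.1 to 57.3). Without doxycycline it was 62.8% against 65.2%, and there the intervals overlapped.

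Upstream summits went with an annotated lncRNA start on the opposite strand. Such a start lay within 1 kb of 15.6% of all one-way TSSs and of 24.3% to 29.8% of those with a peak in a list. With the control shRNA, 45% of the peaks at these promoters had an upstream summit (40.7 to 49.3), against 32.8% at the others (30.2 to 35.5). The shares were 52.1% against 43.3% with shRNA5, 47.5% against 36.4% with shRNA7, 40.1% against 33.6% without doxycycline and 41.2% against 33.0% with it, and the intervals were apart in all 5 lists. Among the genes with upstream summits in all lists, 94 of 198 (47.5%, 40.6 to 54.4) had an opposite lncRNA start, and among those with downstream summits 144 of 531 (27.1%, 23.5 to 31.1). A second TSS of the same gene from 500 to 50 bp upstream was about as frequent in both groups, at 13.1% (9.12 to 18.5) and 9.98% (7.71 to 12.8). Neither feature was annotated at 91 of the 198.

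**Figure D2:**
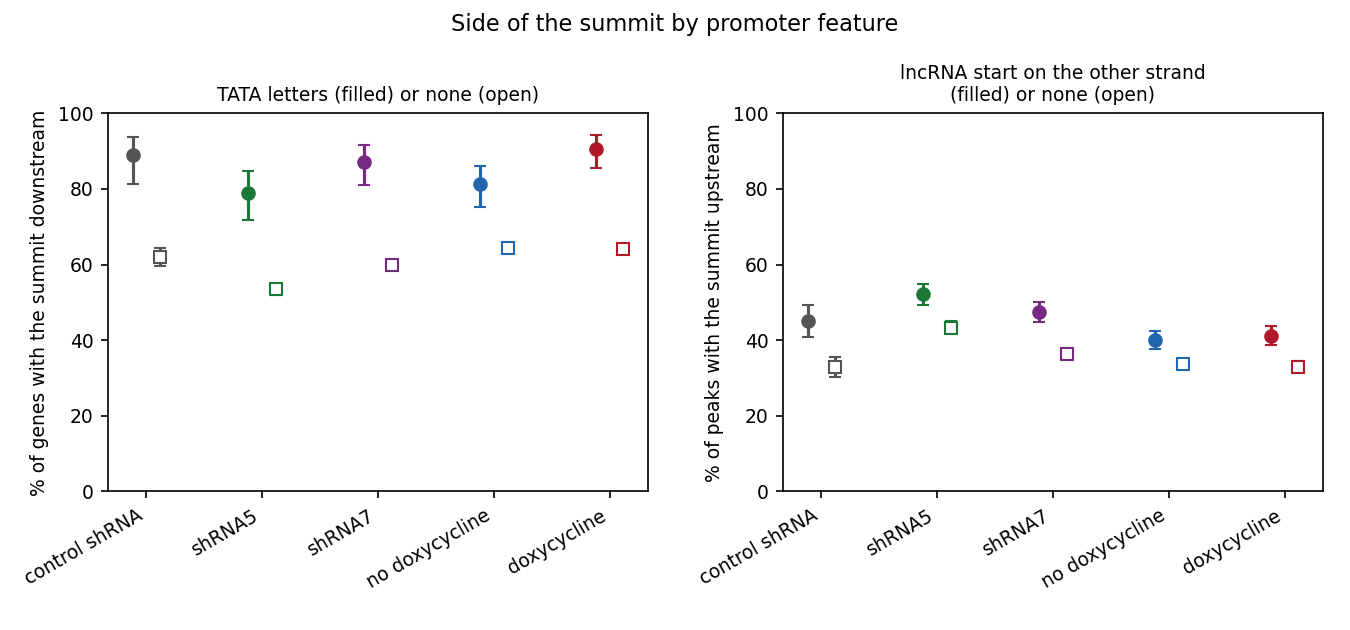
Left, percentage of genes with the summit downstream of the TSS (y axis) in each list (x axis), with TATAA from −40 to −20 (filled) or without (open); right, percentage of peaks with the summit upstream, with an lncRNA start on the other strand within 1 kb (filled) or without (open). Bars are 95% Wilson intervals for counting error; TATAA genes lie between 79.1% and 90.7%, above the others in every list.

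The 4 upstream examples differed in what is annotated nearby. ZBTB37, a zinc finger gene, had its summit at −417, −417, −416, −458 and −429 bp in the 5 lists, and the lncRNA GAS5, a host of small nucleolar RNAs, starts on the other strand at −385 bp. The summits of ZNFX1, a helicase-like gene, lay from −286 to −241 bp. The annotated start of the lncRNA ZFAS1, another host of small nucleolar RNAs, is there inside ZNFX1, at +155 bp. SETD5, a chromatin regulator, had its summit from −308 to −189 bp, beyond the start of THUMPD3-AS1 at −111 bp. The peaks of ZBTB37, ZNFX1 and SETD5 lay mostly upstream, so their tags are not of the named gene alone. They reached 9174 to 15843, 6255 to 13726 and 3512 to 21782 bp before the TSS in that order. Into the gene they reached 267 to 1208, 409 to 1014 and 361 to 8172 bp. At RPL31, a ribosomal protein gene, the 5 summits lay from −436 to −408 bp, with an unnamed lncRNA starting at −495 bp, while the peak reached 5600 to 13418 bp into the gene. BLM, a RecQ helicase related to RECQL5 and the one gene of that family with a one-way promoter, also had upstream summits in all 5 lists, from −264 to −209 bp, with CRTC3-AS1 starting at −205 bp.

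One-way promoter peaks were shorter than the rest of the list with the control shRNA and shRNA5, and longer in the doxycycline pair. Their median length was 1610 bp with the control shRNA, 1769 bp with shRNA5, 2036 bp with shRNA7, 1009 bp without doxycycline and 944 bp with it, against 2076, 1851, 2021, 580 and 644 bp for the rest of each list. With shRNA7 the intervals of the 2 medians overlapped (1998 to 2078 and 2000 to 2040). They held a median of 85, 102, 133, 38 and 43 tags in that order, against 98, 85, 92, 12 and 20 for the rest. Tags per kb of peak were higher than in the rest of each list, with medians of 51.9 against 46.5, 55.0 against 44.6, 62.4 against 43.7, 36.3 against 21.5 and 44.2 against 31.6. Bidirectional promoter peaks, which belong to that rest, had still higher medians. These were 52.5, 59.0, 66.7, 41.1 and 48.1 tags per kb and 88, 123, 154, 51 and 54 tags. In the control list their intervals overlapped those of the one-way peaks. One-way promoter peaks held 29.7%, 22.7%, 23.8%, 32.0% and 29.0% of all tags in peaks of the 5 lists.

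Over each list as a whole, the peaks reached further into the gene than upstream of it. Their inner edge lay a median of 800 bp past the TSS with the control shRNA and their outer edge 745 bp before it. These distances were 893 and 810 bp with shRNA5, 1026 and 851 bp with shRNA7, 514 and 478 bp without doxycycline and 478 and 449 bp with it. The share of peaks that reached further in than up was 56.3% to 61.1% over the 5 lists, against 48.1% to 52.3% at bidirectional promoters, and the intervals of the 2 classes did not overlap in any list. Stronger peaks extended mainly inwards. In the top quartile of shRNA7 peaks by tags (251 to 10540), the median inner edge was at 4517 bp and the outer one at 1604 bp, whereas in the bottom quartile (27 to 85) they were at 644.5 and 604 bp. The control list went from 579.5 and 579 bp in its bottom quartile to 2218 and 955 bp in its top quartile.

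**Figure D3:**
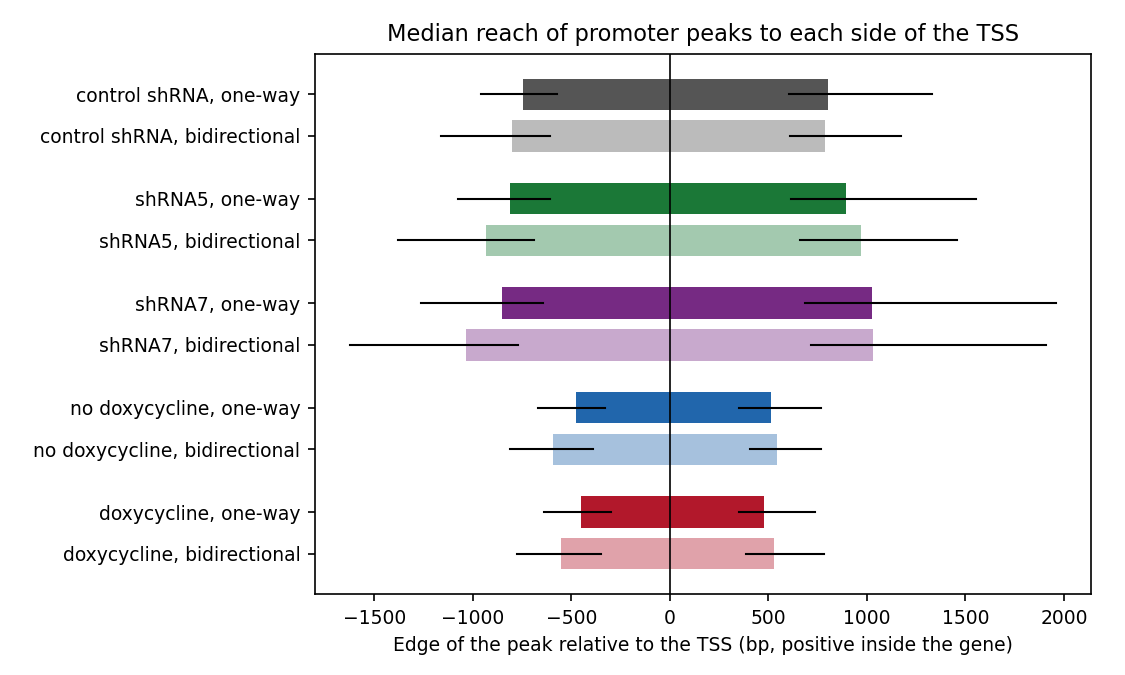
Median distance in bp (x axis) from the TSS to the outer edge (left of 0) and inner edge (right of 0) of peaks at one-way (full colour) and bidirectional (pale) promoters in each list (y axis); black lines span the quartiles. With shRNA7 the one-way peaks reach 1026 bp inwards and 851 bp upstream, while the bidirectional ones are near symmetric.

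At the 6 strongest genes the peak covered the whole gene in every list. SRSF3 had 2249 tags in 18430 bp with the control shRNA, 3869 in 24592 bp with shRNA5, 5850 in 26344 bp with shRNA7, 1587 in 18414 bp without doxycycline and 1715 in 16634 bp with it. EEF2 was the exception in order, as its 1527 tags in the control list were the fewest and its 2299 tags without doxycycline exceeded the 2217 with shRNA5. In the other 5 of these genes, shRNA7 had the most tags, shRNA5 the next most, and the remaining 3 lists the fewest. Within the doxycycline pair all 6 had more tags with the drug, by 1.08 to 1.28 times.

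The shRNA5 list had more one-way promoter peaks than the control shRNA, and more tags in those found in both. The number of such peaks was 2.73 times that of the control list (2.58 to 2.89) over the uncut lists. All peaks together rose further, from 5287 to 23698. With both knockdown lists cut to the number of peaks in the control list, keeping the most significant ones, the fold was 0.981 (0.917 to 1.05). At the 1573 genes with a peak in both lists, tags were a median of 181 with shRNA5 and 84 with the control, and the median ratio was 1.97 (1.93 to 2.02). At least 2-fold more tags were found at 766 of these genes (48.7%) and at least 2-fold fewer at 3, against 51% and 0.292% of all peaks that overlapped one to one between the 2 lists. The share of higher peaks was thus near that of the lists as a whole. Peaks were also longer, with a median length ratio of 1.44 (1.41 to 1.48), and denser, with a median ratio of tags per kb of 1.32 (1.31 to 1.34).

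With shRNA7 the same differences were larger. One-way promoter peaks were 3.35 times as many (3.17 to 3.53), or 0.872 times (0.814 to 0.935) with lists cut to equal length. All peaks together rose further, from 5287 to 32124. At the 1460 shared genes the medians were 277 tags with shRNA7 and 82 with the control, a median ratio of 3.03 (2.94 to 3.16). Of these genes, 1227 (84.0%) had at least 2-fold more tags and 0 at least 2-fold fewer, against 86.8% and 0.0326% of all one-to-one peaks. The median length ratio was 1.93 (1.84 to 2.05) and that of tags per kb 1.53 (1.52 to 1.55), and 98.4% of the shared genes had more tags per kb with shRNA7. Genes with TATAA had a median tag ratio of 4.56 (3.58 to 5.59, 87 genes), above the 2.98 (2.88 to 3.11) of those without. The TATAA genes did not stand higher with shRNA5, where their ratio was 1.75 (1.66 to 1.93, 93 genes) and that of the others 1.98 (1.94 to 2.03). Both hairpins were compared with the same control library.

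With doxycycline the tags at one-way promoters stayed near those without it, while the number of peaks was lower. These peaks numbered 0.817 times those without doxycycline (0.789 to 0.845). The whole lists fell further, from 47060 to 33900 peaks. At 5461 shared genes the medians were 45 tags with and 47 without, and the median ratio was 1 (0.98 to 1). At least 2-fold more tags were found at 225 genes (4.12%) and at least 2-fold fewer at 313 (5.73%), against 14.2% and 6.43% of all one-to-one peaks. The median length ratio was 0.888 (0.877 to 0.899) and that of tags per kb 1.12 (1.11 to 1.13).

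**Figure D4:**
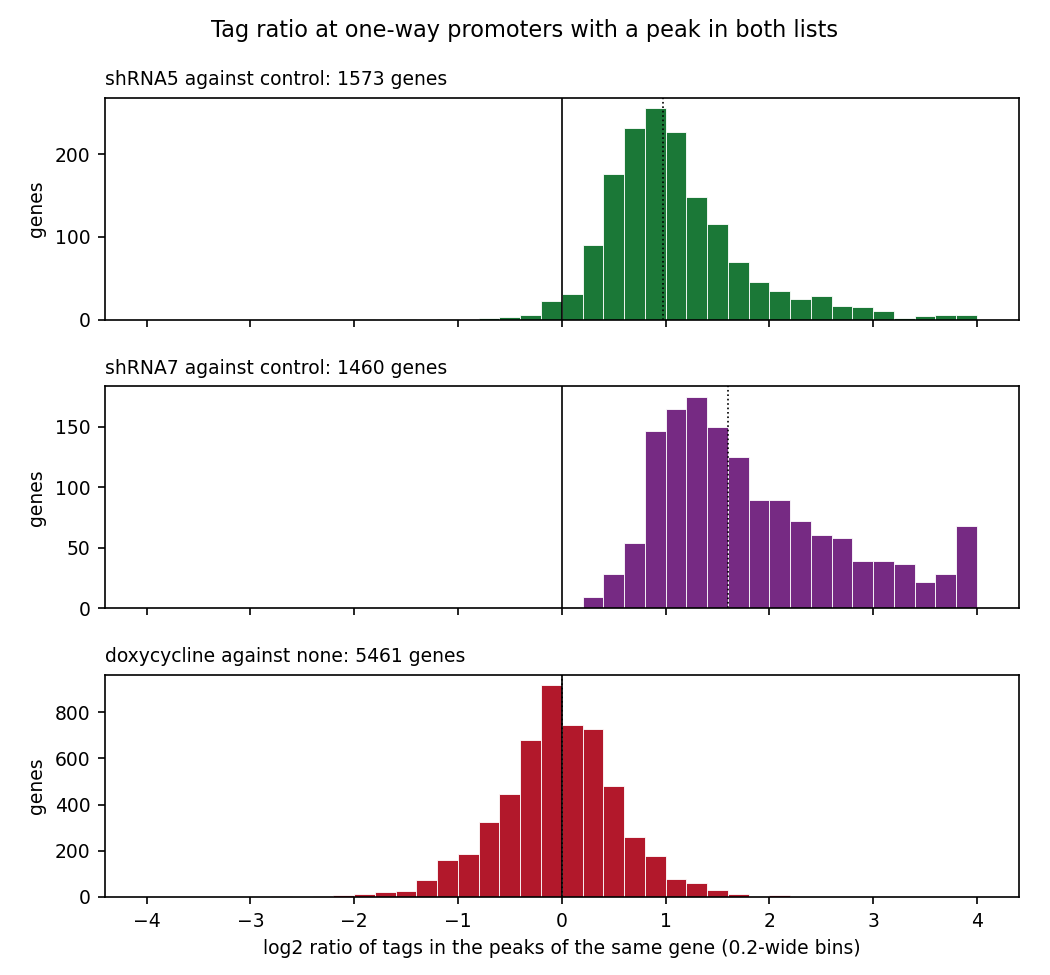
Number of genes (y axis) by the log2 ratio of tags in the peaks of the same one-way promoter (x axis, 0.2-wide bins) for shRNA5 and shRNA7 against the control shRNA and for doxycycline against none; the solid line marks equal tags, the dotted line the median, and values beyond 4 are placed in the last bin. Nearly all genes lie above 0 in the hairpin panels, and the doxycycline panel is centred on 0.

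At shared genes the summits of a pair of lists lay close to each other. The rule itself bounds this shift, since both summits must lie within 500 bp of the TSS. Genes whose summit lay further away in 1 of the lists are left out. The median shift, taken as the offset in the first list minus that in the second, was −6 bp with shRNA5 against the control (−9 to −3), −1 bp with shRNA7 (−5 to 2) and +1 bp with doxycycline against none (−1 to 3). The summit stayed on the same side of the TSS at 79.3%, 80.3% and 74.8% of genes and within 50 bp at 51.9%, 53.8% and 48.4%. With shRNA5, 197 genes went from a downstream to an upstream summit and 126 the other way, whereas with shRNA7 these were 137 and 147.

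The edges, which the rule does not bound as it does the summits, differed more on the inner side with both hairpins. At shared genes the inner edge lay a median of 405 bp further in with shRNA5 (361 to 454) and the outer edge 182 bp further out (166 to 197). With shRNA7 these were 828.5 bp (756 to 926) and 320.5 bp (296 to 352). The inner edge gained more than the outer at 64.7% of genes with shRNA5 (62.3 to 67.0) and 65.5% with shRNA7 (63.0 to 67.9), against 52.3% (47.1 to 57.4) and 51.1% (45.6 to 56.7) at bidirectional promoters, so that both intervals were apart from those of the bidirectional class. With doxycycline both edges drew in, by 56 and 61 bp at the median, and the inner edge gained more at 49.4%.

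Most one-way peaks with a hairpin against RECQL5 had no peak of the control list, as analysed here, on them. Of the shRNA5 peaks 64.1% had none (62.7 to 65.5), compared with 81% of all shRNA5 peaks, and of the shRNA7 peaks 72.0% (70.8 to 73.2), compared with 88.3%. In the reverse direction, 0.878% of the control's one-way peaks had no shRNA5 peak and 5.91% no shRNA7 peak, against 2.57% and 11.6% of the whole control list. The knockdown peaks without a control counterpart were weaker, with a median of 76 tags against 184 for the others with shRNA5, and 107 against 295.5 with shRNA7. Control peaks without a knockdown counterpart were not weaker. The 15 with no shRNA5 peak held a median of 104 tags, against 85 for the others, and the 101 with no shRNA7 peak 154 against 83. In the bottom quartile of shRNA5 peaks by tags 96.6% had no control peak, and in the top quartile 23.1%. Of the 2611 genes with a peak in both knockdown lists and no control peak over the TSS, 2463 (94.3%, 93.4 to 95.2) had one in the list of the untreated inducible cells. The share was 41.9% for all one-way promoters, but most of those had no peak in any list, so the excess is not informative. Of the 1396 genes with a peak in both knockdown lists and the control list, 1339 also had one in both lists of the doxycycline pair. Another 32 had one without doxycycline but not with it.

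A few strong promoters were also without a control peak. SRSF1, a splicing factor, had 4134 tags with shRNA5, 5564 with shRNA7, 524 without doxycycline and 838 with it, while the nearest control peak ended 29777 bp from its TSS. ENO1, a glycolytic enzyme, had 1854, 3953, 1760 and 1907 tags in these lists, and CEBPG, a transcription factor of the C/EBP family, 1796, 2283, 264 and 683. These 3 were the genes with the most knockdown tags among those without a control peak over the TSS. The nearest control peak lay 16749 bp from the TSS of ENO1, where it touched the gene and held 337 tags. For CEBPG it lay 70394 bp away. Among one-way peaks of at least 1000 tags, 6 of 117 with shRNA5 and 21 of 294 with shRNA7 had no overlapping control peak.

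**Figure D5:**
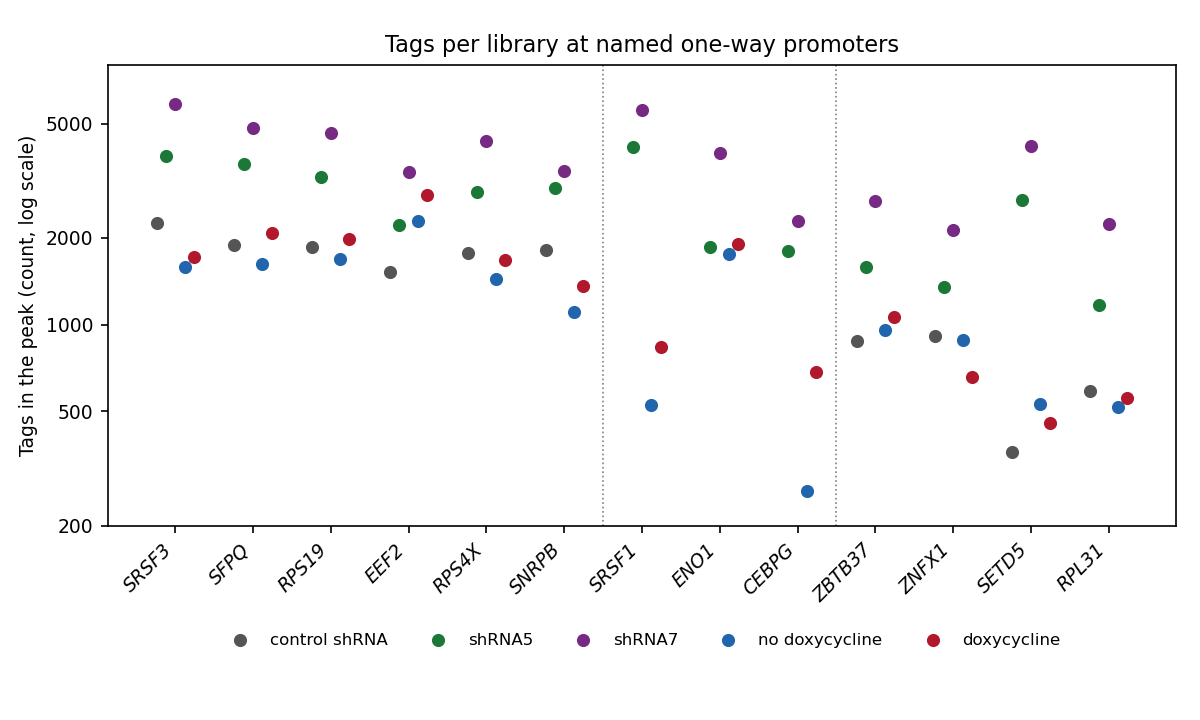
Tags in the one-way promoter peak (y axis, count on a log scale) for named genes (x axis) in each of the 5 lists, 1 library each. Dotted lines separate the 6 strongest genes, the 3 without a control peak over the TSS and the 4 with upstream summits. At ZBTB37, ZNFX1 and SETD5 most of the peak lies upstream of the gene. SRSF1, ENO1 and CEBPG lack a control point, and shRNA7 has the highest point at every gene shown.

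Lists of the doxycycline pair overlapped more fully. Of the one-way peaks with doxycycline, 3.20% had no peak without it, against 38.2% of the whole list, and of those without doxycycline 20.7% had none with it (19.8 to 21.7), against 54.4%. At bidirectional promoters these shares were 1.58% and 10.6%. The 1494 peaks found only without doxycycline had a median of 15 tags, and the others 47.

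The largest tag ratios belonged to genes whose peak was far longer in 1 list. With shRNA5 against the control they were HOXA9, a homeobox gene (54 to 1198 tags, in peaks of 1082 and 15917 bp), EXOSC3, an exosome subunit (52 to 1012 tags), and MYLIP, a ubiquitin ligase that degrades the LDL receptor (73 to 1296 tags). Their tags per kb were 1.51, 1.36 and 1.11 times those of the control. With shRNA7 they were WAC (76 to 2811 tags, in peaks of 1437 and 35686 bp), FOXC1, a forkhead factor (59 to 1793), and the histone gene H4C14 (358 to 10540). The H4C14 peak of 31331 bp also covered the TSSs of H3C14, H3C15 and H4C15, so its tags belong to no single gene. These histone genes have near-identical copies, between which short reads may be split or lost.

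The smallest ratios with shRNA5 were at ADAMTS1, a secreted protease (1159 to 317 tags), ARF1, a small GTPase of Golgi traffic (187 to 69), and the immediate early gene JUNB (140 to 66). Each had a shorter peak with shRNA5, and their tags per kb were 1.32, 1.19 and 1.19 times those of the control. With shRNA7 the smallest were ZNF426 (75 to 55 tags), TARS1 (487 to 485) and COG2 (144 to 165). Over all shared genes, tag ratio and length ratio went together, with Spearman's rho of 0.9 over 1573 genes, 0.936 over 1460 and 0.776 over 5461, as a description across genes that share their 2 libraries.

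With doxycycline the 3 largest ratios were at TPI1, a glycolytic enzyme (13 to 500 tags), GLRX5, a mitochondrial glutaredoxin (12 to 95), and CARD9, an adaptor of immune signalling (11 to 87). TPI1 and GLRX5 had 2 peaks each without doxycycline, of which the one nearest the TSS was small. Taking the larger, with 957 and 49 tags, the ratios were 0.522 and 1.94. The smallest ratios were at RHOF (478 to 63 tags), NANOS1 (174 to 23) and HOXA3 (779 to 118), where tags per kb were 1.28, 0.958 and 0.979 times those without doxycycline.

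A gene can have RNAPII over its TSS without a peak by this rule, when the summit of a long peak lies elsewhere. In the hairpin lists, 331, 1057 and 1516 one-way TSSs were covered in this way, which was 16.3%, 18.5% and 21.0% of those covered, against 7.46% and 7.07% in the doxycycline pair. EGR1, an immediate early transcription factor, was the clearest case: its peak of 2763, 2480 and 3405 tags with the control shRNA, shRNA5 and shRNA7 had the summit at +3302, +3273 and +3266 bp, in the 3′ part of the gene, while without and with doxycycline the summit lay at +92 and +52 bp with 1420 and 1361 tags. GAPDH, a glycolytic enzyme, had its summit at +3987 and +4027 bp with the control and shRNA7 but at +13, +32 and +42 bp in the other lists. At RPL23A the shRNA5 and shRNA7 summits lay at +5297 and +5442 bp, and those of the other lists from +29 to +47 bp. Genes with a control peak by the rule and none with shRNA5 or shRNA7 were mostly of this kind, since 119 of 136 and 148 of 249 of them had their TSS under a knockdown peak.

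Cytosolic ribosomal protein genes had strong peaks that reached far into the gene. Of 77, 61 had a one-way promoter and 40 of these a peak in all 5 lists, against 1339 of all 17019 one-way promoters. Their median tags were 530.5 with the control shRNA, 1120 with shRNA5, 1824.5 with shRNA7, 530 without doxycycline and 584 with it, in peaks with a median length of 6410.5 to 12182.5 bp. The summit lay inside the gene at 45 of 52 with the control shRNA, 35 of 45 with shRNA5 and 37 of 42 with shRNA7. It did so at 52 of 54 without doxycycline and 47 of 54 with it. Over all one-way peaks the shares were 63.5%, 54.3%, 60.7%, 64.6% and 64.7% in the same order. With shRNA5, 25 of 45 shared genes had at least 2-fold more tags, with shRNA7 41 of 42, and with doxycycline 2 of 54, while 3 had at least 2-fold fewer. Over all shared one-way genes the shares with at least 2-fold more tags were 48.7%, 84.0% and 4.12%, near those of the ribosomal proteins with shRNA5 and doxycycline. RPL3 had 1230, 2113, 3433, 1625 and 1663 tags in the 5 lists.

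ZNF genes, mostly zinc finger repressors and activators, had median tags a little below those of all one-way peaks. Of 418 with a one-way promoter, 322 had a peak in some list and 62 in all 5, against 8001 and 1339 of all 17019. Their median tags were 75, 83.5, 115, 36 and 38, against 85, 102, 133, 38 and 43 for all one-way peaks. Their median tag ratio was 1.67 over 72 genes with shRNA5 and 2.47 over 69 with shRNA7, below the 1.97 and 3.03 of all one-way genes, and 1.06 over 231 with doxycycline. ZNF225 had the most tags of the list with shRNA5, 1499 against 302 with the control. Its shRNA5 peak was 16761 bp long and reached 14692 bp upstream of the TSS, so its tags are not of this gene alone.

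Histone genes of the replication-dependent clusters had a peak in some list at 33 of 43 one-way promoters, against 8001 of all 17019. Their median tags were 233 with the control, 327 with shRNA5, 1177 with shRNA7, 142 without doxycycline and 149 with it. All 16 genes shared with shRNA7 had at least 2-fold more tags, and 5 of 20 with shRNA5, against 84.0% and 48.7% of all shared one-way genes. H1-4, a linker histone, had 3331 tags with shRNA7, 780 without doxycycline and 763 with it, while its control and shRNA5 peaks had their summits beyond the limit, at +1165 and +1356 bp. Its shRNA7 peak was 22399 bp long and ran far past the gene. The H1-4 peaks without and with doxycycline reached 3326 and 3002 bp past the TSS, which is also beyond the gene.

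Immediate early genes, which respond within minutes to growth signals, had a peak in some list at 21 of 24 one-way promoters, against 8001 of all 17019. Of the 10 shared between shRNA5 and the control, 4 had at least 2-fold more tags and 1 at least 2-fold fewer (JUNB), and 7 of 8 had at least 2-fold more with shRNA7, which is near the 48.7% and 84.0% of all shared one-way genes. DUSP1, a MAP kinase phosphatase, had 98, 703, 1358, 569 and 569 tags in the 5 lists, and JUND 90, 125, 959, 417 and 423. In both, the shRNA7 value was the highest and the control the lowest, and the shRNA7 peak ran past the end of the gene. The peaks of the doxycycline pair also did so in both genes, as did the shRNA5 peak of DUSP1.

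Heat shock protein genes numbered 8 with a one-way promoter, of which 3 had a peak in all lists, against 1339 of all 17019 one-way promoters. HSPA1B, whose reads are shared with its near-identical neighbour HSPA1A, had 193, 377, 4776, 478 and 247 tags. Its shRNA7 peak of 21179 bp reached 19738 bp past the TSS and so ran far beyond the gene. HSPA8, a constitutive chaperone, had 163, 395, 2003, 358 and 234. HSPA5, the chaperone of the endoplasmic reticulum, had 175, 738, 1088, 411 and 332. The shRNA7 peaks of HSPA8 and HSPA5 also ran past the end of the gene. So did the peaks of HSPA5 with shRNA5 and without doxycycline, and that of HSPA1B without doxycycline. Over the 4 shared genes of the doxycycline pair the median ratio was 0.620, with 0 at least 2-fold lower.

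Among all 17019 one-way promoters, 8001 had a peak in some list and 1339 in all 5. Of the 14 pausing and elongation factors with such a promoter, 13 had a peak in some list and 3 in all. HEXIM1, an inhibitor of the elongation kinase P-TEFb, had 685, 1091, 3817, 571 and 635 tags, and CCNT1, a cyclin of that kinase, 64, 191, 540, 124 and 125. The shRNA7 peak of HEXIM1 reached 13753 bp upstream and 14107 bp past the TSS, beyond the gene on both sides. Its control, shRNA5 and doxycycline peaks also ran past the end of the gene. All 6 RNAPII subunit genes with a one-way promoter had a peak in some list, POLR2J with 103, 187, 963, 263 and 350 tags. Of 15 glycolysis genes 13 had a peak in some list. PKM had 481, 1209, 2349, 402 and 463 tags, and LDHA 77 with shRNA5, 650 with shRNA7, 175 without doxycycline and 77 with it.

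Genes not used in this line had almost no peaks. Of 385 olfactory receptor genes with a one-way promoter, 1 had a peak, OR1F1 with 13 tags without doxycycline. The markers of other tissues PTPRC, CD3E, HBB, ALB, APOA1, SFTPC, INS and MYH7 had none in any list. The markers fixed for the kidney line were of little use for this class, as KRT8 and KRT18 had no one-way promoter and PAX2, LHX1, EYA1 and VIM had no peak by the rule. VIM, an intermediate filament gene, was covered at its TSS in 4 lists, by peaks of 2357, 3448, 748 and 832 tags with shRNA5, shRNA7, no doxycycline and doxycycline and with summits from +1080 to +10221 bp. RECQL5 itself had no one-way promoter, and neither did RECQL, WRN or RECQL4, so the targeted gene gave no check of the labels here. BLM had 130, 308, 376, 97 and 161 tags in the 5 lists.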

How the data were processed

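RNAPII and IgG ChIP-seq reads were processed by the authors with CASAVA 1.8, aligned to hg19 with Bowtie 0.12.7 and turned into peaks with MACS 1.4.2, each RNAPII library against an IgG library. Per the study's methods, alignment files were merged and reads in regions blacklisted for mappability removed; which files were merged was not given in the sources used here. The deposited lists give for each peak a count of tags, which is not normalized for depth. They also hold a significance score (the negative log10 of the peak caller's p, times 10), of at least 50 in the lists the authors deposited. The deposited fold enrichment is the peak height over local background, and the false discovery rate is deposited as a percentage. IgG values were not analysed here.

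Summits were joined to GENCODE release 44 coordinates on GRCh37. A gene with 2 peaks in a list entered comparisons with the one nearest the TSS. Tags were not scaled. Shares carry Wilson intervals, ratios of counts the corresponding interval of the odds, and medians order-statistic intervals, all at 95%. With 1 library per group no hypothesis was tested. Python 3.11.15, numpy 2.4.6, pandas 2.3.3, SciPy 1.17.1, pysam 0.24.0 and matplotlib 3.10.9 were used, and the counting was tested on simulated data.

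The promoter class and gene lists were chosen with earlier results of these data known. Named genes were the 6 with a peak in all lists and the highest geometric mean of tags, and the 3 largest and 3 smallest tag ratios per comparison (at least 50 tags in the higher list). Also named were the 3 with the most knockdown tags and no control peak over the TSS, and up to 4 per gene list by tags without doxycycline. The 4 upstream examples, BLM's position and ZNF225's rank were chosen after values were seen. Alternatives changed the score, false discovery rate, fold enrichment, window, TSS choice, list length, chromosomes and overlap.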

Additional observations from a re-analysis of the deposited data

How the results depend on the processing

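Of 145 alternative values for 17 results, 107 stayed within the counting interval of the value reported, 36 moved outside it and 2 passed to the other side of 1. When lists were cut by score to the length of the shortest of their arm, the fold in the number of one-way promoter peaks was 0.981 for shRNA5 (0.917 to 1.05, which includes 1), 0.872 for shRNA7 (0.814 to 0.935) and 0.860 for doxycycline. With a score of at least 100 it was 4.94, 6.47 and 0.769 for shRNA5, shRNA7 and doxycycline, and with a fold enrichment of at least 10 it was 1.60, 2.14 and 0.663. With a false discovery rate of at most 5% it was 2.88 for shRNA7.

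The median tag ratio stayed above 1 for both hairpins in every alternative. For shRNA5 it moved to 2.15 with equal lists and 1.77 when both peaks had to overlap by 50%. For shRNA7 it was 3.48 with the higher score, 3.56 with equal lists and 2.26 with the overlap. For doxycycline these were 1.02 with the higher score, 1.01 with the fold enrichment and 1.01 with the overlap. The median length ratio moved to 1.50, 1.56 and 1.28 for shRNA5 and to 2.32, 2.31 and 1.38 for shRNA7 with the higher score, equal lists and the overlap, and to 0.915, 0.909 and 0.907 for doxycycline with the higher score, the fold enrichment and the overlap.

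The median summit offset became 47, 39, 44 and 44 bp for the control, shRNA5, shRNA7 and doxycycline lists with a 250 bp window. With the one-way TSSs of all protein-coding transcripts, which took in more peaks, it was 16, 3, 12, 12 and 16 bp over the 5 lists. With equal lists it was 29 bp for shRNA5 and 32 bp for shRNA7. The cause was not tested for any of these. Lists cut to equal length hold fewer peaks by construction.

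No paired analysis was possible because a group held 1 library, and leaving out a library would have left no group to compare. The lists give no read depth, tags were not scaled to it, and a list's length and the length of its peaks move with how much was called.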
